A study of Homo sapiens with 6 samples.

Results

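The genes described here are 10 members of a signalling system that guides growing blood vessels and axons: the ligands VEGFA and VEGFB, the neuropilins NRP1 and NRP2, the class A plexins PLXNA1, PLXNA2 and PLXNA3, the class B plexins PLXNB1 and PLXNB2, and the class 3 semaphorin SEMA3C. They were chosen by name, with the difference between TR-107 and DMSO already known from these libraries, and all 10 were found by NCBI Gene ID among the 28395 gene rows of the count files. Their differences between treatments are therefore given as a description, with no test. All 10 passed the filter on low counts that left 13767 genes for testing.

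The cells were HCT116, an established human colorectal cancer line. A group of 3 libraries came from cells kept for 24 h in 50 nM TR-107, a compound that activates ClpP, a protease inside mitochondria. The control group of 3 libraries came from cells kept for the same 24 h in the vehicle, 0.1% DMSO. The series compares them to find which transcripts change when ClpP is activated, and it holds 1 cell line, 1 dose and 1 time.

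VEGFA and VEGFB are secreted growth factors. VEGFA acts through the receptor tyrosine kinases FLT1 and KDR, and VEGFB through FLT1. Neuropilins are transmembrane co-receptors with a short cytoplasmic tail. They bind heparin-binding forms of VEGFA on one hand and class 3 semaphorins on the other, and they pass semaphorin signals on through class A plexins, whose cytoplasmic part acts on small GTPases. Class B plexins bind class 4 semaphorins without a neuropilin. In tumours VEGFA made by cancer cells is best known for drawing in vessels, and neuropilins are also found on carcinoma cells themselves.

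Libraries held 17264039 to 23708135 counts. Values are CPM (counts scaled to library size), with library sizes adjusted by TMM factors of 0.965 to 1.03, and n is 3 libraries per group throughout. The design text speaks of biological replicates but does not describe separate cultures, so errors cover the spread between libraries only. In bulk RNA, fewer cells of a kind and less RNA per cell cannot be told apart. Epithelial markers were high (a summed level of 5264 to 5309 CPM in DMSO and 5840 to 5954 CPM in TR-107 for 7 genes, of which VIL1 alone was near 0). Of 8 endothelial markers, CDH5 and EMCN were at 0 counts in all 6 libraries, and the 8 together held 0.372 to 1.31 CPM in DMSO and 0.326 to 0.818 CPM in TR-107. The leukocyte genes PTPRC and CD3E were also at 0. Of 6 fibroblast or mural genes, COL3A1, DCN and LUM were at 0 and COL1A2 had at most 2 reads in a library, while COL1A1 (242 to 372 reads) and RGS5 (55 to 86 reads) were detected. The 6 together held 16 to 19.5 CPM in DMSO and 20.2 to 22.4 CPM in TR-107, and their part in the results was not tested. CD68, which also marks lysosomes in other cells, carried most of the leukocyte list (4.72 to 6.78 CPM summed in DMSO, 10.2 to 14.4 CPM in TR-107), and its part in the results was not tested.

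In the 3 TR-107 libraries NRP1 and VEGFA were higher than in any DMSO library, with fitted differences between the groups of 13.7-fold and 3.09-fold. SEMA3C, a ligand of the neuropilins, and VEGFB were lower, with fitted differences of 2.33-fold and 1.39-fold. The plexins PLXNA1, PLXNB1 and PLXNB2 differed by at most 1.13-fold from the control level, and PLXNA3 was 1.19-fold higher. In edgeR's fit over all genes, which called 57.8% of all genes tested, 4 of the 10 were called higher (NRP1, VEGFA, PLXNA2 and PLXNA3), 3 lower (SEMA3C, VEGFB and PLXNA1) and 3 not (NRP2, PLXNB1 and PLXNB2). Of the 10, 3 were called and at least 2-fold higher (6.55% of all genes) and 1 was called and at least 2-fold lower (3.71%). Calls in 1 direction took 29.2% (higher) and 28.6% (lower) of all genes. Groups did not overlap for 7 of the 10 and for 62.4% of all genes. The median log2 fold change of the 10 was 0.07, and that of all genes tested 0.01. Because the contrast was in view when the genes were chosen, nothing is read from these counts.

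**Figure D1:**
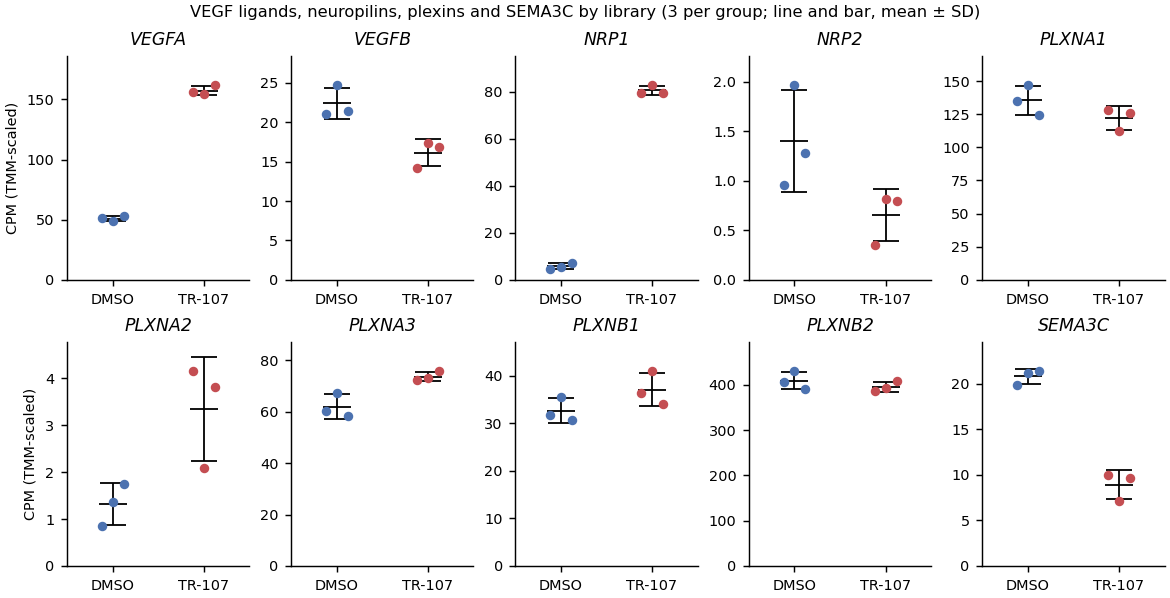
CPM of each of the 10 genes in each library, with its own axis from 0; points are libraries, the line and bar the mean and SD of 3. NRP1 and VEGFA lie far apart between groups, SEMA3C and VEGFB lie lower in TR-107, and the points of PLXNA1, PLXNB1 and PLXNB2 overlap.

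VEGFA (gene ID 7422) is the vascular growth factor whose level sets vessel growth in development and in tumours. It lies on the plus strand of GRCh38 chromosome 6, 43770184 to 43786487, by GENCODE 29. In DMSO it had 51.0, 48.9 and 52.7 CPM (954, 1119 and 1274 reads), and in TR-107 156, 154 and 162 CPM (2672, 2814 and 3470 reads). Within a group no library strayed far from the others, with a coefficient of variation of 3.72% in DMSO and 2.48% in TR-107, and the lowest TR-107 library stood well clear of the highest DMSO library. The log2 fold change was 1.63 ± 0.05 (SE), which ranked VEGFA 334th of 13767 genes from the highest.

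VEGFB (gene ID 7423), a relative of VEGFA that does not bind KDR, lies on chromosome 11, 64234538 to 64238793, plus strand. Its levels were 21.1, 24.7 and 21.5 CPM in DMSO and 14.1, 17.3 and 16.9 CPM in TR-107. All 3 TR-107 libraries were below all 3 DMSO libraries, though the groups came within a few CPM of each other, and the log2 fold change was -0.48 ± 0.11 (SE). The pair of ligands thus differed in opposite directions. Per kilobase of exon, VEGFA stood at 0.837 ± 0.0969 (SD, n = 3) of the VEGFB level in DMSO and at 3.61 ± 0.400 (SD, n = 3) times that level in TR-107. This ratio depends on the exon length used: with exons of all annotated transcripts, which for VEGFA take in introns, it was 0.245 ± 0.0283 (SD, n = 3) in the DMSO libraries and 1.05 ± 0.117 (SD, n = 3) in the TR-107 libraries.

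SEMA3C (gene ID 10512) is a secreted semaphorin that binds both neuropilins and is known for its part in heart outflow tract and axon development. It lies on the minus strand of chromosome 7, 80742538 to 80922359. DMSO libraries held 19.8, 21.2 and 21.3 CPM (371, 485 and 516 reads) and TR-107 libraries 9.99, 7.12 and 9.65 CPM (171, 130 and 207 reads). The DMSO libraries were close together, and every TR-107 library was below them, with TR-107 replicate 2 the lowest. The log2 fold change was -1.22 ± 0.13 (SE), the lowest of the 10 genes. The ratio of VEGFA to SEMA3C, 2 ligands that share a co-receptor, was 3.17 to 3.53 per kilobase in DMSO and 21.5 to 29.7 in TR-107. With exons of all annotated transcripts it was 1.00 to 1.12 in DMSO and 6.79 to 9.40 in TR-107. Counts are per gene, so the heparin-binding forms of VEGFA, which bind neuropilins, were not told apart from its other forms.

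NRP1 (gene ID 8829), the co-receptor for VEGFA and SEMA3A, lies on the minus strand of chromosome 10, 33177492 to 33336262. It had 4.71, 5.51 and 7.15 CPM in DMSO (88, 126 and 173 reads) and 79.4, 82.7 and 79.3 CPM in TR-107 (1359, 1509 and 1702 reads). The DMSO libraries spread by 21.5% around a low mean, the TR-107 libraries by 2.39%, and the groups were far apart. Its log2 fold change was 3.78 ± 0.10 (SE), the 32nd highest of all genes tested. By mean CPM over the 6 libraries it stood at percentile 62.2 of the tested genes.

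NRP2 (gene ID 8828), the neuropilin that also serves VEGFC in lymphatic vessels, lies on chromosome 2, 205681990 to 205798133, plus strand. It was near the limit of detection, with 18, 45 and 31 reads in DMSO and 6, 15 and 17 reads in TR-107. In CPM this was 0.963, 1.97 and 1.28 in DMSO and 0.351, 0.822 and 0.792 in TR-107. Every TR-107 library was below every DMSO library, but only just, and NRP2 was not called (log2 fold change -1.09 ± 0.52, SE). Counting error is large at such depth. The neuropilin mRNA of these cells was mostly NRP1 in both groups: per kilobase its share of the 2 was 87.7 ± 4.14% (SD, n = 3) in DMSO and 99.5 ± 0.183% (SD, n = 3) in TR-107.

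**Figure D2:**
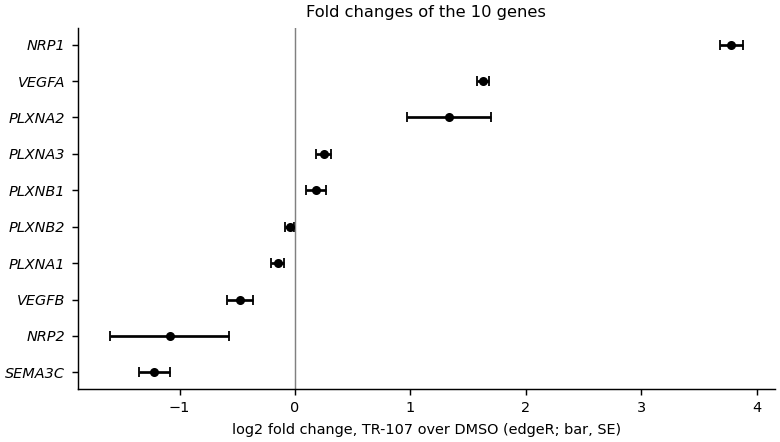
Log2 fold change of each gene, TR-107 over DMSO, from edgeR's fit; bars are SE and the grey line is no difference. NRP1 is at 3.78 and SEMA3C at -1.22, NRP2 and PLXNA2 have the widest bars, and PLXNA1, PLXNA3, PLXNB1 and PLXNB2 lie within 0.25 of 0.

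Class A plexins are the signalling partners of neuropilins for class 3 semaphorins. PLXNA1 (gene ID 5361; chromosome 3, 126988594 to 127037392, plus strand), the highest of them per kilobase, had 135, 147 and 125 CPM in DMSO and 128, 112 and 126 CPM in TR-107. The groups overlapped, and the call as lower (log2 fold change -0.15 ± 0.06, SE) was lost without DMSO replicate 2 (-0.09) or without TR-107 replicate 2 (-0.09). PLXNA3 (gene ID 55558; chromosome X, 154458281 to 154477779, plus strand) had 60.4, 67.3 and 58.1 CPM in DMSO and 72.2, 73.0 and 75.7 CPM in TR-107. Its TR-107 libraries were all above its DMSO libraries, by a narrow gap (log2 fold change 0.25 ± 0.06, SE).

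PLXNA2 (gene ID 5362; chromosome 1, 208022242 to 208244320, minus strand) was rare, with 16, 31 and 42 reads in DMSO and 71, 38 and 82 reads in TR-107. It went from 0.856, 1.35 and 1.74 CPM to 4.15, 2.08 and 3.82 CPM. The groups did not overlap, but TR-107 replicate 2 was close to the DMSO libraries, and the coefficient of variation was 33.6% in DMSO and 33.1% in TR-107. The log2 fold change was 1.33 ± 0.36 (SE), and per kilobase PLXNA2 made up 0.129% of the 5 plexins in DMSO and 0.332% in TR-107.

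Class B plexins are receptors for class 4 semaphorins. PLXNB2 (gene ID 23654; chromosome 22, 50274979 to 50307627, minus strand) had the highest level per kilobase of the 10 genes, and its CPM was 406, 430 and 392 in DMSO and 387, 392 and 408 in TR-107. The groups overlapped (log2 fold change -0.05 ± 0.04, SE). PLXNB1 (gene ID 5364; chromosome 3, 48403854 to 48430051, minus strand) had 31.8, 35.5 and 30.6 CPM in DMSO and 36.3, 40.9 and 34.0 CPM in TR-107, which overlapped as well (log2 fold change 0.18 ± 0.09, SE). It was called higher only without DMSO replicate 2 (0.24) or without TR-107 replicate 3 (0.24), and PLXNB2 was called lower only with library size alone (-0.11).

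Levels can be set against each other only per length. CPM was divided by the kilobases covered by the exons of transcripts that GENCODE 29 pairs with a RefSeq mRNA. In DMSO, PLXNB2 was highest at 64.6 ± 3.04 CPM per kilobase (SD, n = 3). VEGFB (16.2), PLXNA1 (14.9) and VEGFA (13.5) followed on the same scale, where neighbours overlapped in their ranges. PLXNA3 (5.69), PLXNB1 (4.44), SEMA3C (4.02) and NRP1 (0.980) came next, each apart from the one before. NRP2 (0.137) and PLXNA2 (0.115) were lowest and overlapped.

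In TR-107, PLXNB2 was again highest at 62.5 ± 1.76 CPM per kilobase (SD, n = 3), and VEGFA was next at 41.8 ± 1.04 (SD, n = 3). NRP1 followed at 13.6 ± 0.325 (SD, n = 3), in a range that overlapped PLXNA1 (13.5), which in turn overlapped VEGFB (11.7). Below these came PLXNA3 (6.77), PLXNB1 (5.04), SEMA3C (1.72), PLXNA2 (0.293) and NRP2 (0.0637), with no overlap between neighbours. NRP1 thus went from rank 8 of 10 to rank 3. The place of VEGFA and NRP1 depends on the length used, since with exons of all annotated transcripts, a setting chosen after the data were seen, VEGFA ranked 3 and NRP1 ranked 5 in TR-107.

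**Figure D3:**
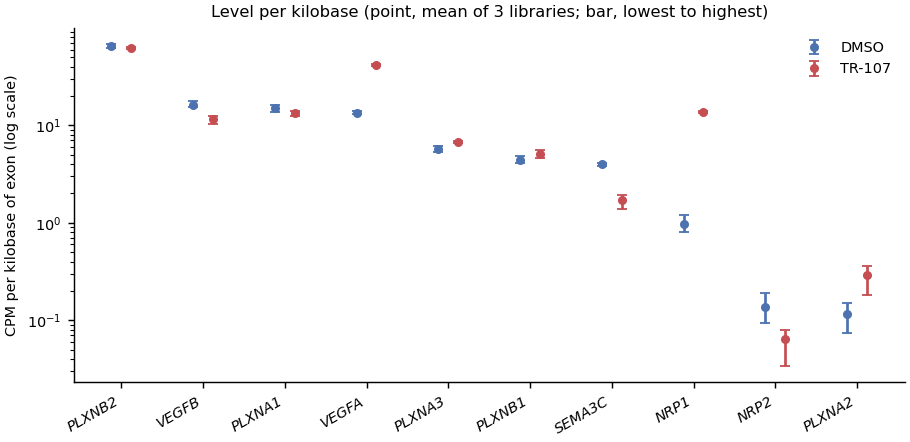
CPM per kilobase of exon for each gene on a log axis, ordered by the DMSO level; points are means of 3 libraries and bars run from the lowest to the highest. NRP1 climbs from 0.980 to 13.6 and VEGFA from 13.5 to 41.8, while PLXNB2 is at 64.6 and 62.5.

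Summed over the 5 plexins, the level per kilobase was 89.8 ± 5.04 (SD, n = 3) in DMSO and 88.0 ± 1.92 (SD, n = 3) in TR-107. PLXNB2 supplied 72% of it in DMSO and 71.0% in TR-107, PLXNA1 16.6% and 15.3%, PLXNA3 6.34% and 7.68%, and PLXNB1 4.94% and 5.73%. The make-up of these 5 plexins was thus close in both groups. Other plexins were left out of this sum. Of the 3 of them tested, PLXNB3 was called higher and PLXND1 lower (63.4 to 47.0 CPM). The summed neuropilin level went from 1.12 ± 0.223 to 13.7 ± 0.340 CPM per kilobase (SD, n = 3). Class A plexin mRNA therefore exceeded neuropilin mRNA by 14.4 to 23.0 times in the DMSO libraries and by 1.37 to 1.57 times in the TR-107 libraries. With exons of all annotated transcripts these ratios were 23.1 to 36.7 and 2.30 to 2.63. Only mRNA was measured, so protein at the cell surface was not tested.

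The genes whose course over the 6 libraries was nearest to that of NRP1, by Euclidean distance of log2 CPM centred on each gene's mean among 10539 genes of at least 5 CPM, were SLFN5 (distance 0.222), LAMP3 (0.348), DDIT3 (0.531), GDF15 (0.595) and UPP1 (0.619). For VEGFA they were KRT7 (0.0836), SH3KBP1 (0.0856), GOT1 (0.101), PSAT1 (0.112) and MGLL (0.113). With 2 groups of 3 libraries this measure mostly ranks genes by the size of their fold change. The log2 fold changes were 3.50 to 4.24 for the first 5 genes and 1.60 to 1.69 for the other 5.

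RefSeq's promoter table (GRCh38.p14) held 10 windows for 8 of the genes. NRP1 and VEGFA had none. Some windows do not adjoin the GENCODE spans given above. That of PLXNA1 (chr3:126982865-126983114) lies apart from its span, upstream, and the only one of PLXNB2 (chr22:50301670-50301919) lies inside its span. Which start these cells used was not tested. The 250 bases before each start were searched on both strands for 7 motifs. TGATGNAA is the core that ATF4 binds with a C/EBP partner, and TGACGTCA and TGACGT are cyclic AMP response elements, the second contained in the first. ACGTG is 1 form of the core of hypoxia response elements, whose other form, GCGTG, was not searched. The rest were TGANTCA (AP-1), GGGCGG (the GC box) and TATAAA (the TATA box). A GC box stood in 8 of the 10 windows and in at least 1 window of all 8 genes, and in 42.6% of the 35116 windows of all genes. TGATGNAA stood in 1 window, a distal start of SEMA3C, and in 3.14% of all windows. The other 5 were in none of the 10 windows, against 1.65%, 7.10%, 18.5%, 6.57% and 10.7% of all windows in the order given above. These are matches of letters, not binding sites, and GC content differs between windows (36.4% to 84.4%; median of all windows 58%).

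Shown are the 250 bases before the start of the genes with a window whose fold change was highest, PLXNA2 (minus strand of chr1:208244385-208244634), and lowest, SEMA3C (minus strand of chr7:80922390-80922639), 5′ to 3′ with motif matches in capitals. The former holds 3 GC boxes at 113, 80 and 47 bases before the start, and the latter, which has 36.4% GC, the TGATGNAA match at 19 bases before it. SEMA3C has a second listed start, whose window (minus strand of chr7:80919052-80919301) has 77.6% GC, 3 GC boxes and no TGATGNAA match. The window with that match is the one shown.
PLXNA2: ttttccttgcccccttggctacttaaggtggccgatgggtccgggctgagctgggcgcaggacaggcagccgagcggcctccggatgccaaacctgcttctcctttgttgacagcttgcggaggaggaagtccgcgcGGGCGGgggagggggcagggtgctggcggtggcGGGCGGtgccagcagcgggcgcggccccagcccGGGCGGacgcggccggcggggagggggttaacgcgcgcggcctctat
SEMA3C: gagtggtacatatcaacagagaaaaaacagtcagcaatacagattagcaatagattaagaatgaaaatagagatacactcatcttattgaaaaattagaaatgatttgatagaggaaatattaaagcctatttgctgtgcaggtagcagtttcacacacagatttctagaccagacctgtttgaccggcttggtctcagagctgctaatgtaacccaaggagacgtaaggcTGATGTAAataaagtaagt

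The receptors of VEGFA that sit beside the neuropilins were at or near 0. FLT1 had 0 reads in all 6 libraries, which allows up to 0.124 to 0.175 CPM per library (3 counts each, for counting error only). KDR had 2, 0 and 2 reads in DMSO and 12, 1 and 7 in TR-107. FLT4, the VEGFC receptor, had 0, 3 and 6 reads in DMSO and 0 in the 3 TR-107 libraries. None of these could be tested. VEGFC and PDGFD, ligands of the same superfamily, were at 0 reads in every library, and VEGFD had at most 4 reads.

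Other genes of the pathway were taken from 7 lists of 102 genes in all, of which 82 could be tested. edgeR's quasi-likelihood test with Benjamini-Hochberg adjustment over all genes called 27 of them higher and 28 lower (67.1%, beside 57.8% of all genes). Their median log2 fold change was -0.02, and that of all genes tested 0.01. The called genes thus lay in both directions in nearly equal number. The lists were also chosen with earlier results of these data known. These shares and the adjusted p values below are therefore descriptions.

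Of 12 VEGF and PDGF family ligands and receptors, 4 could be tested, and 3 rose and 1 fell (median log2 fold change 0.79). Of all genes tested, 57.8% were called. PDGFB, a growth factor for mural cells, rose from 33.2 ± 5.26 to 85.2 ± 5.89 CPM (SD, n = 3; edgeR adjusted p = 6.46e-13). PDGFA (log2 fold change 0.74 ± 0.10, SE) and PDGFC (0.83 ± 0.14, SE) rose less. PGF, a VEGF family ligand that binds FLT1 and neuropilins, fell from 5.13 ± 0.751 to 2.48 ± 0.677 CPM (SD, n = 3; edgeR adjusted p = 0.000771).

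Among the other plexins, PLXND1, the receptor of SEMA3E on vessels, fell from 63.4 ± 3.92 to 47.0 ± 0.334 CPM (SD, n = 3; edgeR adjusted p = 9.21e-07). PLXNB3 rose from 4.12 to 6.34 CPM (edgeR adjusted p = 0.0109), a call that was lost without TR-107 replicate 2 (log2 fold change 0.54, edgeR adjusted p = 0.0596, within 0.0104 to 0.0596 over the 15 settings tried). PLXNC1 was not called (log2 fold change -0.49 ± 0.39, SE), and PLXNA4, with at most 3 reads in a library, was not tested.

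Of 19 other semaphorins 15 could be tested. The test called 4 higher and 5 lower (60% called, beside 57.8% of all genes), and their median log2 fold change was -0.09. Of the 6 class 3 semaphorins among them, ligands most of which need neuropilins, 3 fell and 1 rose. Of all genes tested, 28.6% were called lower and 29.2% higher. SEMA3G fell from 4.88 ± 0.589 to 0.710 ± 0.343 CPM (SD, n = 3; edgeR adjusted p = 6.66e-09), SEMA3F from 20.5 to 11 CPM and SEMA3A, the classical ligand of NRP1, from 15.7 to 8.33 CPM. SEMA3B went the other way, from 10.1 ± 0.747 to 25.3 ± 3.16 CPM (SD, n = 3; edgeR adjusted p = 1.27e-12). SEMA3D and SEMA3E were low and were not called, with log2 fold changes of -1.01 ± 0.61 and -0.09 ± 0.40 (SE).

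Membrane-bound semaphorins also split. SEMA6B, a class 6 ligand of class A plexins, fell from 128 ± 12.2 to 76.2 ± 2.32 CPM (SD, n = 3; edgeR adjusted p = 2.17e-14), and SEMA4G fell from 16.1 to 12.3 CPM, a call that was lost without TR-107 replicate 3 (log2 fold change -0.23). SEMA4B rose from 42.6 ± 1.27 to 78.9 ± 7.28 CPM (SD, n = 3; edgeR adjusted p = 1.42e-14). SEMA6A (log2 fold change 0.41 ± 0.16, SE) and SEMA7A (0.20 ± 0.08, SE), a membrane-anchored ligand of PLXNC1, were called higher as well. SEMA6A lost its call with library size alone (0.34), without DMSO replicate 2 or 3 (0.37 both times) and without TR-107 replicate 2 (0.36) or 3 (0.33). SEMA7A lost its call with library size alone (0.14, edgeR adjusted p = 0.130, within 0.0203 to 0.130 over the settings), without DMSO replicate 1 (0.19) or 3 (0.17) and without TR-107 replicate 2 (0.18). SEMA4D, the ligand of PLXNB1, missed the threshold (31.5 ± 1.37 and 27.2 ± 2.71 CPM, SD, n = 3; edgeR adjusted p = 0.0532). It was called lower with RLE factors (log2 fold change -0.21), library size alone (-0.27), a minimum of 1 CPM in 3 libraries (-0.21), and without DMSO replicate 2 (-0.25) or TR-107 replicate 3 (-0.28).

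Of 28 partners and effectors of plexins and neuropilins 27 could be tested, of which 7 rose and 10 fell (median log2 fold change -0.01). This was 63.0% called, beside 57.8% of all genes. MICAL2, a relative of the redox enzyme MICAL1 that class A plexins activate, rose from 60.0 ± 3.03 to 217 ± 1.79 CPM (SD, n = 3; edgeR adjusted p = 2.48e-30). FYN, a kinase that phosphorylates class A plexins, rose from 9.45 ± 0.924 to 33.0 ± 3.42 CPM (SD, n = 3; edgeR adjusted p = 1.43e-17), and RHOD, a small GTPase that binds plexins, from 30.6 to 41.0 CPM. The 10 that fell, beside 28.6% of all genes called lower, included DPYSL3 (66.1 to 35.2 CPM), DPYSL5 (23.1 to 9.0 CPM), DPYSL2 (51.3 to 32.1 CPM) and DPYSL4 (5.99 to 3.38 CPM). These encode collapsin response mediators, phosphoproteins that carry semaphorin signals to microtubules, and they were set side by side after their values were seen. CRMP1, of the same family, had 0 reads in the DMSO libraries and 4, 5 and 0 in TR-107, and was not tested. GIPC1, the adaptor that binds the tail of NRP1, was not called (125 ± 4.98 and 117 ± 6.97 CPM, SD, n = 3; edgeR adjusted p = 0.0814), except with library size alone (log2 fold change -0.17) and without DMSO replicate 1 (-0.14) or TR-107 replicate 2 (-0.15), where it was called lower. MET, a receptor kinase that associates with class B plexins, was not called either (459 ± 19.3 and 456 ± 31.8 CPM, SD, n = 3; edgeR adjusted p = 0.875).

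Of 9 proteases and other enzymes that process or release these ligands, 8 could be tested, and 1 rose and 2 fell (median log2 fold change -0.04). This was 37.5% called, beside 57.8% of all genes. ADAM17, a sheddase of membrane proteins, rose from 51.4 ± 4.21 to 119 ± 2.96 CPM (SD, n = 3; edgeR adjusted p = 8.50e-21). HPSE, the heparanase that frees heparin-bound factors, fell from 23.1 to 14.5 CPM and PCSK7 from 39.2 to 32.0 CPM. FURIN, which cleaves class 3 semaphorins, was not called (101 ± 2.42 and 96.1 ± 5.75 CPM, SD, n = 3; edgeR adjusted p = 0.304), except as lower with library size alone (log2 fold change -0.13).

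VEGFA is a textbook target of hypoxia-inducible factors. HIF1A, the oxygen-regulated subunit, was not called at the mRNA level (133 ± 6.34 and 124 ± 8.50 CPM, SD, n = 3; edgeR adjusted p = 0.0977). It was called lower with library size alone (log2 fold change -0.17), without DMSO replicate 2 (-0.14) and without TR-107 replicate 3 (-0.15), with edgeR adjusted p of 0.00464, 0.0278 and 0.0176 in a range of 0.00464 to 0.429. EPAS1, the second such subunit, rose from 59.9 ± 5.99 to 80.2 ± 3.06 CPM (SD, n = 3; edgeR adjusted p = 5.61e-07). VHL, which marks these factors for destruction, rose from 104 to 173 CPM, and EGLN3, an oxygen-sensing hydroxylase, fell from 5.00 to 2.32 CPM. Of the 8 genes tested in the list of factors and sensors, 3 rose and 2 fell (median log2 fold change 0.06). This was 62.5% called, beside 57.8% of all genes. The other 2 called genes were less stable: ARNT (0.21) lost its call as higher with library size alone (0.14) or without DMSO replicate 3 (0.18), and EGLN1 (-0.17) lost its call as lower without TR-107 replicate 1 (-0.13).

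Of 20 other target genes of these factors 17 could be tested. The test called 8 higher and 7 lower (88.2% called, beside 57.8% of all genes, with a median log2 fold change of 0.08). At 2-fold or more, 5 were called higher and 1 lower, beside 6.55% and 3.71% of all genes. DDIT4 (log2 fold change 4.43 ± 0.05, SE), NDRG1, a stress-responsive gene (57.7 to 355 CPM), and BNIP3L, a mitophagy receptor (24.9 to 50.1 CPM), rose. LDHA (-1.14 ± 0.04, SE) and PGK1 (-0.41 ± 0.04, SE), enzymes of glycolysis, and ADM, the vasodilator adrenomedullin (34.9 to 22.9 CPM), fell. Target genes were thus called in both directions, and the part of these factors was not tested. Protein levels and oxygen were not measured.

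**Figure D4:**
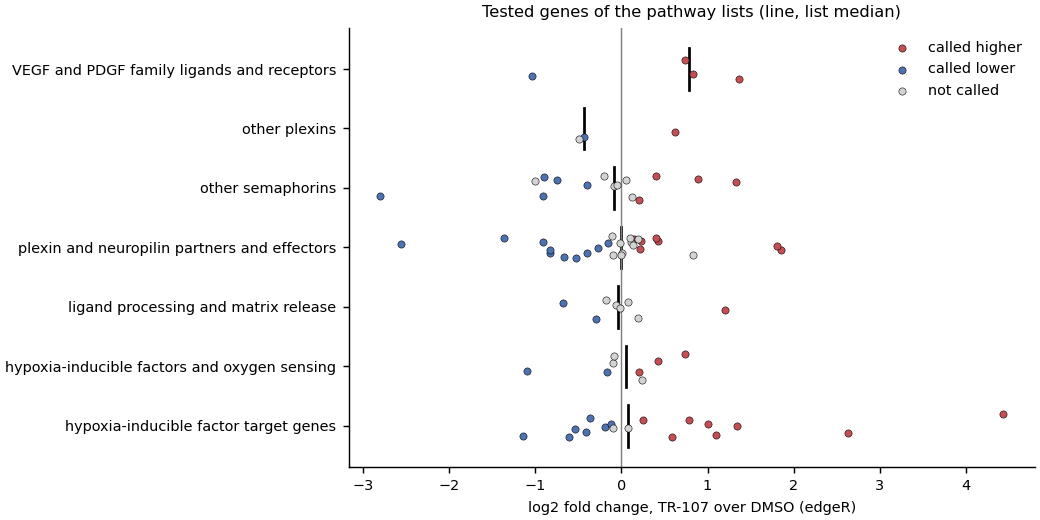
Log2 fold change of each tested gene of the 7 pathway lists, TR-107 over DMSO; red points were called higher, blue lower and grey not called, and the black line is the list's median. Points lie on both sides of 0 in all 7 lists, and list medians run from -0.43 (other plexins, 3 genes) to 0.79 (VEGF and PDGF families, 4 genes).

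How the authors' counting treated strand is not given in the sources used here, so reads of antisense genes cannot be told apart. In GENCODE 29, exons of genes on the opposite strand cover 4.87% of the exon bases of NRP1 over all its annotated transcripts, 1.30% of those of VEGFA, 1.06% of those of NRP2 and 0.0940% of those of PLXNA3. The other 6 genes share no exon base with another annotated gene.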

How the data were processed

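The deposited files hold raw counts by NCBI Gene ID, 1 file per library, which the authors made with FastQC, Trimmomatic, HISAT2 and featureCounts on hg38, per the submitters' processing notes. Versions, gene annotation and settings for strand or multi-mapped reads were not stated there. Of 28395 IDs, 27745 matched a symbol in RefSeq's gene table. Per the labels' protocols, poly(A) RNA was read in pairs. Counts were scaled by TMM, filtered with filterByExpr and fitted with edgeR 4.0.16 (R 4.3.3; quasi-likelihood, robust, group alone), with Benjamini-Hochberg adjusted p under 0.05 as the threshold. SE was the log2 fold change over the root of F. Alternatives used limma 3.58.1 and DESeq2 1.42.0. The fit was checked on simulated counts.

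The genes and lists were chosen with earlier results of these data known. Named were the 10 genes, FLT1, KDR, FLT4, HIF1A and EPAS1, up to 3 genes per list and direction with the smallest p, and the 5 nearest genes of NRP1 and of VEGFA. The other genes named were chosen after their values were seen. Exon lengths came from GENCODE 29. Within groups, libraries differed by more than sampling noise (chi-square per degree of freedom 3.92 to 6.05), so each counted once. Counting intervals ignore PCR duplicates.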

Additional observations from a re-analysis of the deposited data

How the results depend on the processing

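Log2 fold changes of the 10 genes and of the other genes checked, and counts of calls, were recomputed under 15 settings. These included 3 other scalings, 2 other filters on low counts, the replicate block, DESeq2 and limma-voom. The rest left out the mitochondrially encoded genes, or each library in turn. The direction of all 10 genes held in every setting that gave a value. NRP1 ranged over log2 fold changes of 3.65 to 3.96, VEGFA 1.56 to 1.65, SEMA3C -1.30 to -1.08, VEGFB -0.54 to -0.39, PLXNA2 1.10 to 1.58 and NRP2 -1.30 to -0.78 (NRP2 gave no value with a minimum of 1 CPM in 3 libraries). With library size alone VEGFA (1.56) and PLXNB2 (-0.11) moved by more than the spread between replicates. That setting shifted the median of all genes from 0.01 to -0.05. Of 44 other tested genes checked, 34 kept their call, or lack of one, in all settings that gave a value, and the 10 exceptions stand beside their values above. Counts of calls stayed within 1.5 times. With each library left out, 3596 to 3852 of all genes were called higher and 3727 to 3825 lower, and 23 to 27 and 25 to 30 of the pathway genes. Same-numbered libraries showed no shared deviation (r = -0.03, -0.02 and 0.05, beside -0.06 to 0.08 for libraries of different number). With 3 libraries per group this cannot decide whether the numbers pair them. With the replicate block 3976 genes were called higher and 3942 lower, and 27 pathway genes in each direction, and the calls of the 10 genes did not change.

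Levels per kilobase depend on the length. With the longest RefSeq-paired transcript VEGFA was at 14.4 (DMSO) and 44.5 (TR-107) CPM per kilobase and NRP2 at 0.211 and 0.0983. With exons of all annotated transcripts, added after the data were seen, DMSO levels were 3.53 (VEGFA), 14.5 (VEGFB), 0.502 (NRP1), 12.4 (PLXNA1), 3.35 (PLXNB1), 56.4 (PLXNB2) and 3.32 (SEMA3C), and TR-107 levels 10.9 (VEGFA), 10.4 (VEGFB), 6.98 (NRP1), 11.2 (PLXNA1), 6.29 (PLXNA3), 3.81 (PLXNB1) and 54.5 (PLXNB2). Depth limits NRP2 and PLXNA2, which had under 100 reads in each library.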
